A study of Caenorhabditis elegans with 16 samples.

Results

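In *Caenorhabditis elegans*, 10 genes that handle sulfide and sulfur amino acids or set the activity of the transcription factor HIF-1 were followed across 4 groups of worms. They were listed by name for their place in the pathway: *cbs-1*, *cth-1* and *cth-2* of transsulfuration, the cysteine synthase-like genes *cysl-1* and *cysl-2*, the sulfide-oxidizing genes *sqrd-1* and *ethe-1*, and *rhy-1*, *egl-9* and *hif-1* of the HIF-1 axis. This list and the pathway lists used further on were drawn up with earlier results of these data known. All 10 genes were found in the count table of 47029 genes, and all 10 were among the 14328 genes with enough reads to test. The largest called changes against the control were in *rhy-1*, *sqrd-1*, *cth-1* and *cysl-2*. *sqrd-1* rose with curcumin and fell with sulforaphane, and *cth-1* did the reverse. *rhy-1* and *cysl-2* were called higher than the control when both compounds were given. For *rhy-1* the combination was not called above either compound alone.

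Transsulfuration moves the sulfur of homocysteine into cysteine by way of cystathionine, and its enzymes can also release hydrogen sulfide. Hydrogen sulfide is a signal at low levels and a poison of respiration at high levels, and mitochondria oxidize it. In *C. elegans* it acts on HIF-1 through CYSL-1, which binds the prolyl hydroxylase EGL-9 and relieves the inhibition of HIF-1, while RHY-1 acts upstream as a negative regulator. Sulforaphane, an isothiocyanate of cruciferous plants, itself contains sulfur, and curcumin is the yellow polyphenol of turmeric.

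The worms were strain SS104, which carries glp-4(bn2), a temperature-sensitive mutation that blocks germline proliferation; the control worms carry it too. They were kept at 15 °C, moved to 24 °C as L2/L3 larvae to make them sterile, fed *Escherichia coli* OP50 on defined medium, and collected whole on day 3 of adulthood. The control group was untreated. The curcumin group received curcumin phytosome at 5 mg/mL on the bacterial lawn, the sulforaphane group 0.625 mg/mL sulforaphane, and the combination group both compounds at these doses, with 4 replicates in each group. No vehicle is named for the untreated plates, and curcumin and the lipid carrier of its phytosome form cannot be told apart.

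Messenger RNA was sequenced after poly-T selection, and the libraries held 14315538 to 19964755 counted reads. Expression is given as CPM, the read count relative to the scaled library total, and levels of different genes are compared by the authors' FPKM, which divides by gene length. A gene is called changed at an edgeR adjusted p under 0.05, with the adjustment over all 14328 tested genes. Marker genes differed between the groups in bulk tissue, where fewer cells of a type and less RNA per cell cannot be told apart. The summed CPM of 5 intestinal markers was 827 to 953 in the control libraries, 524 to 567 under curcumin, 991 to 1143 under sulforaphane and 523 to 600 under both. Curcumin lowered 4 of these 5 markers and the combination all 5, whereas sulforaphane raised 1, the intestinal actin *act-5*. Of the body-wall muscle markers, *tnt-2* was called higher with curcumin and all 5 with the combination, where their sum was 1501 to 2054 CPM against 1267 to 1465 in the control. The 10 germline and oocyte markers still summed to 466 to 553 CPM in the control, with 1 of them, *oma-2*, called higher with curcumin and with the combination, and all 5 early embryo markers were under 1 CPM in every library. Of the other markers, *snb-1* of neurons was called higher with the combination, and those of hypodermis, pharynx and sperm gave no call against the control.

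In untreated worms the level per gene length of these genes spanned a wide range. *cth-2*, a cystathionine gamma-lyase gene, stood at 637 ± 38.5 FPKM (SD, n = 4), above *hif-1* at 120 ± 4.31 FPKM (SD, n = 4), and the ranges of these genes did not overlap with each other or with the next gene. Then came *sqrd-1* at 30.4 ± 3.03, *cth-1* at 26.6 ± 2.9, *cbs-1* at 26.6 ± 1.7, *cysl-1* at 24.4 ± 0.682, *cysl-2* at 24.4 ± 2.39, *ethe-1* at 22.9 ± 2.63 and *egl-9* at 22.4 ± 0.681 FPKM (SD, n = 4). Each neighbouring pair among these 7 genes overlapped in range, so the order of neighbours is not resolved. *rhy-1* was lowest at 14.9 ± 1.16 FPKM (SD, n = 4), below the whole range of *egl-9*.

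**Figure D1:**
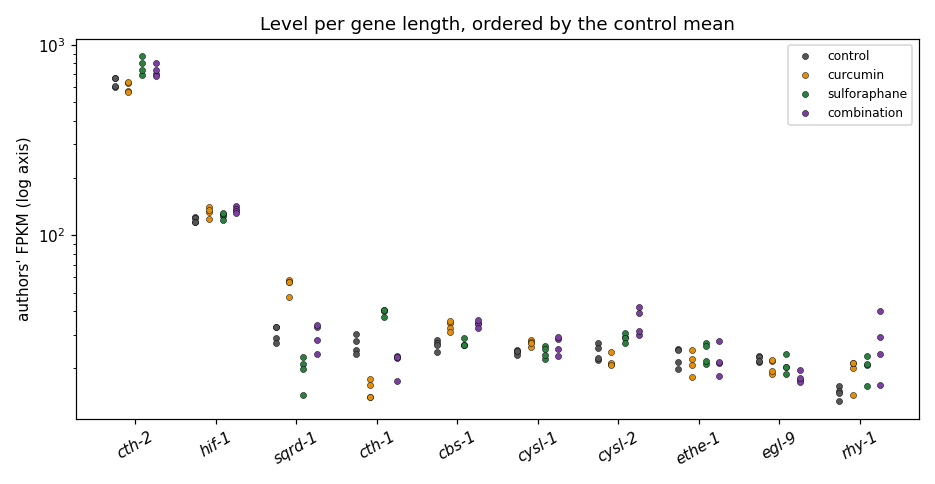
Level of each gene per gene length in all 16 libraries (authors' FPKM, log axis), ordered by the control mean; each point is a library, coloured by group. *cth-2* and *hif-1* stand apart at the top, and for *sqrd-1* and *cth-1* the curcumin and sulforaphane points lie on opposite sides of the control points.

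The genes lie on chromosomes II, IV, V and X, and their coordinates in the deposited table equal those of the RefSeq annotation of WBcel235. The plus-strand genes are *cbs-1* (NCBI Gene 181215, X:10054275-10057528), *cth-1* (180079, V:16100680-16102750), *sqrd-1* (178374, IV:14219871-14224440), *rhy-1* (174455, II:9161379-9163448), *egl-9* (179461, V:10468517-10476915) and *hif-1* (180359, V:20780407-20785260). The minus-strand genes are *cth-2* (174155, II:7056184-7057960), *cysl-1* (181209, X:9952579-9954533), *cysl-2* (175107, II:14492874-14494451) and *ethe-1* (177783, IV:9506936-9508761). Ensembl lists 7 transcripts for *egl-9*, 6 each for *hif-1* and *sqrd-1*, 2 each for *cbs-1* and *cth-1*, and 1 each for the others; a count per gene does not separate them. Of the members, 3 share a short stretch with a protein-coding gene on the other strand: *cysl-2* shares 36 bp with *vnut-1*, *rhy-1* shares 82 bp with W07A12.8, and *cth-2* shares 8 bp with ZK1127.3. Whether the counting used strand is not given in the sources used here. Over all libraries *vnut-1* had 4486 reads against 7898 for *cysl-2*, and it was lower with curcumin, at -1.23 on the log2 scale (edgeR adjusted p 2.31e-08, SE 0.12). It fell with the combination by 0.99 on the log2 scale (edgeR adjusted p 3.75e-07, SE 0.12), the direction opposite to *cysl-2*. Against sulforaphane, curcumin was lower for both *vnut-1*, by -1.37 (edgeR adjusted p 1.99e-09, SE 0.12), and *cysl-2*. The part of shared reads in the *cysl-2* values was not tested. W07A12.8 had 794 reads against 8646 for *rhy-1* and fell with the combination by 0.74 (edgeR adjusted p 0.00444, SE 0.19), again opposite to the member it overlaps. ZK1127.3 had 2191 reads against 232117 for *cth-2*. The part of shared reads in the *rhy-1* and *cth-2* values was not tested either.

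**Figure D2:**
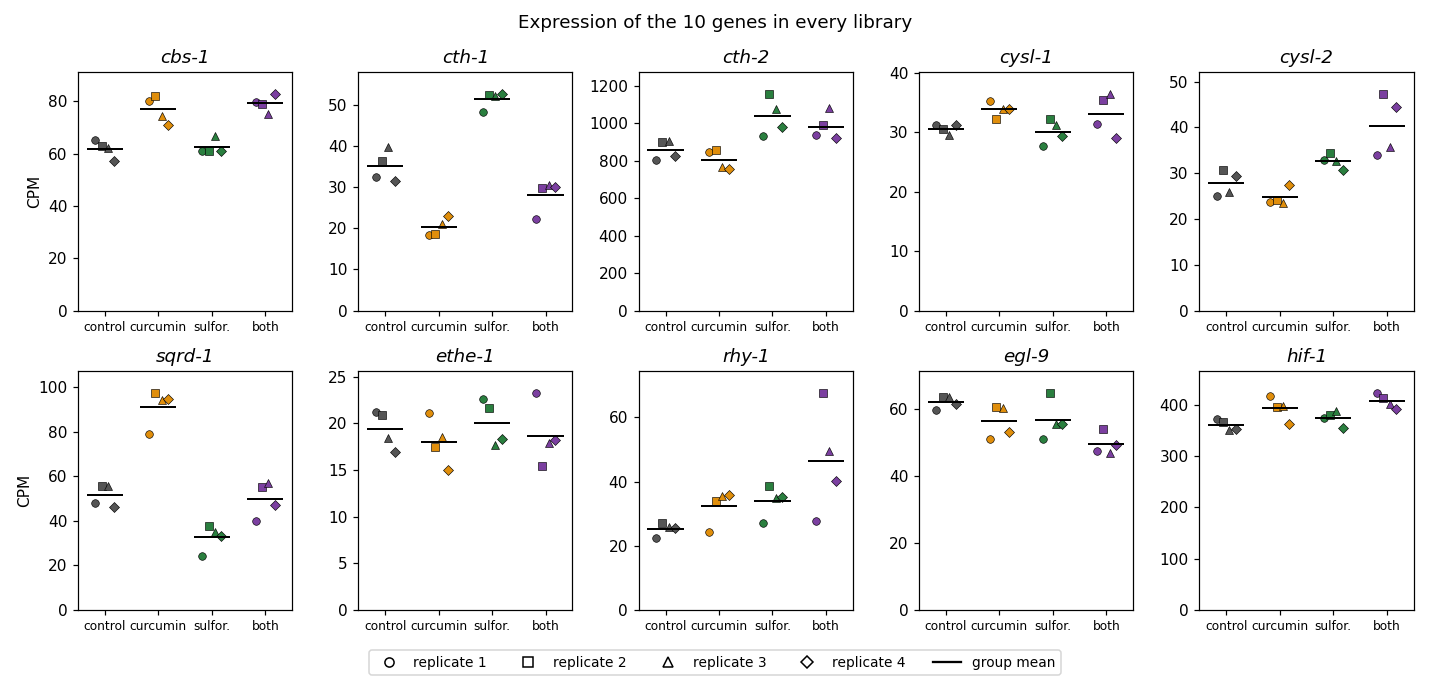
CPM of the 10 genes in every library by group, with the replicate number as the marker shape and the group mean as a line; every axis starts at 0. *sqrd-1* and *cth-1* separate curcumin from sulforaphane without overlap, and the libraries of replicate 1 (circles) are the lowest of their group for *rhy-1*.

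Against the control, curcumin changed 3 of the 10 genes, raising *sqrd-1* and *cbs-1* and lowering *cth-1*. In that comparison 14.6% of all tested genes were called, 6.87% higher and 7.71% lower. For 4 members the CPM range with curcumin lay apart from that of the control, beside 16.8% of all tested genes. Sulforaphane also changed 3, raising *cth-1* and *cth-2* and lowering *sqrd-1*, where 6.71% of all tested genes were called, 4.33% higher and 2.37% lower; ranges did not overlap for 4 members, beside 13.8% of tested genes. The combination changed 6, raising *rhy-1*, *cysl-2*, *cbs-1* and *hif-1* and lowering *egl-9* and *cth-1*, where 23.1% of all tested genes were called, 12.1% higher and 11% lower. Ranges lay apart for 7 members, beside 22.8% of tested genes. The median log2 change of the 10 genes was 0.01, 0.05 and 0.14 in these comparisons, and that of all tested genes was -0.01, -0.02 and -0.02. The comparisons share their control libraries. As the members were chosen with earlier results of these data known, their counts beside these shares are not a test.

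**Figure D3:**
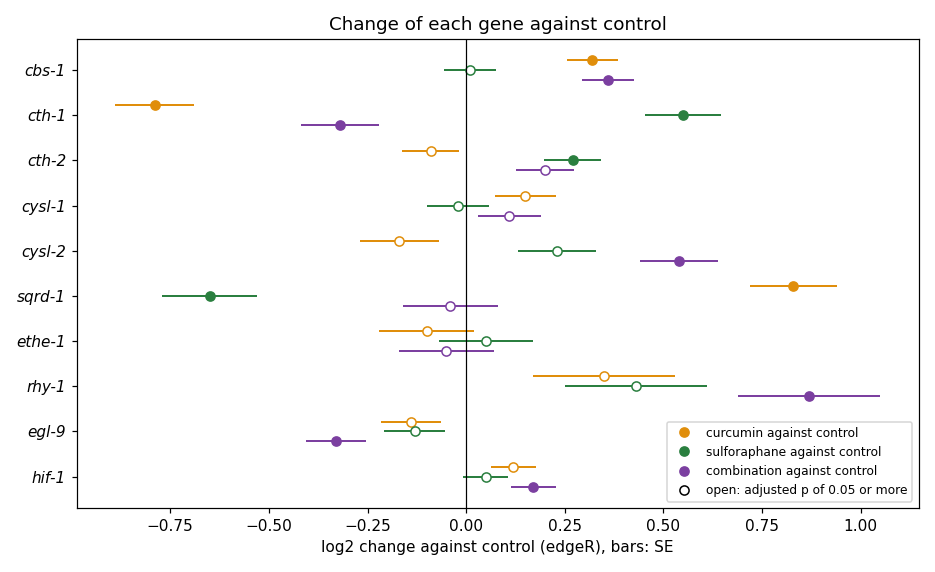
Log2 change of each gene against the control for the 3 treated groups (edgeR); bars are 1 SE, and filled points have an adjusted p under 0.05. *sqrd-1* and *cth-1* lie on opposite sides of 0 for curcumin and sulforaphane, and *rhy-1* and *cysl-2* lie farthest to the right for the combination.

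Transsulfuration opens with cystathionine beta-synthase, which joins homocysteine and serine into cystathionine and is encoded by *cbs-1*. *cbs-1* was at 65.4, 62.8, 62.0 and 57.1 CPM in the control libraries and at 80.2, 82.1, 74.6 and 71.1 CPM with curcumin. It was at 61.0, 61.0, 66.7 and 61.0 CPM with sulforaphane and at 79.7, 79.0, 75.2 and 83.0 CPM with the combination. Every library that received curcumin was above every library that did not. The log2 change against the control was 0.32 with curcumin (edgeR adjusted p 0.00107, SE 0.065) and 0.36 with the combination (edgeR adjusted p 0.000171, SE 0.065). With sulforaphane it was 0.01 (edgeR adjusted p 0.94, SE 0.066), with a 95% interval of -0.12 to 0.14. The combination was higher than sulforaphane by 0.34 (edgeR adjusted p 0.000368, SE 0.066), and curcumin was higher than sulforaphane by 0.30 (edgeR adjusted p 0.00136, SE 0.065).

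The next step, cleavage of cystathionine to cysteine, is the reaction of cystathionine gamma-lyase, encoded in the worm by *cth-1* and *cth-2*. *cth-1* was at 32.5, 36.3, 39.8 and 31.5 CPM in the control libraries and at 18.4, 18.6, 21.1 and 22.9 CPM with curcumin. It was at 48.3, 52.3, 52.0 and 52.7 CPM with sulforaphane and at 22.3, 29.7, 30.5 and 29.9 CPM with the combination. Sulforaphane libraries were all above the control range, and curcumin and combination libraries were all below it. Curcumin lowered *cth-1* to 0.578 times the control level, a log2 change of -0.79 (edgeR adjusted p 1.84e-06, SE 0.1). Sulforaphane raised it 1.47-fold, a log2 change of 0.55 (edgeR adjusted p 0.00036, SE 0.096). Against each other the groups differed by -1.34 on the log2 scale, curcumin being lower (edgeR adjusted p 1.14e-10, SE 0.099). The combination lay between curcumin and the control: it was lower than the control by -0.32 (edgeR adjusted p 0.0195, SE 0.098) and higher than curcumin by 0.47 (edgeR adjusted p 0.00288, SE 0.1). The combination and curcumin ranges overlapped, with combination replicate 1 at 22.3 CPM below the highest curcumin library at 22.9 CPM. The call against the control was lost without combination replicate 1 (log2 change -0.23, edgeR adjusted p 0.101) and without control replicate 3 (-0.26, edgeR adjusted p 0.0945), in a range of 0.00331 to 0.101 over 24 alternatives. The intestinal marker sum given above moved in the same direction as *cth-1* in all 3 comparisons with the control, lower with curcumin and with the combination and higher with sulforaphane, and its part in the *cth-1* values was not tested.

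*cth-2* was the more abundant of this pair by far. It was at 804, 898, 905 and 825 CPM in the control libraries and at 844, 856, 765 and 755 CPM with curcumin. With sulforaphane it was at 930, 1158, 1074 and 982 CPM, and with the combination at 936, 989, 1081 and 923 CPM. All 8 libraries that received sulforaphane were above all 8 that did not. Sulforaphane raised *cth-2* by 0.27 on the log2 scale (edgeR adjusted p 0.0208, SE 0.073). That call was lost without control replicate 1, sulforaphane replicate 2 or sulforaphane replicate 3, where the edgeR adjusted p was 0.0613, 0.116 and 0.0707. For the combination the log2 change of 0.20 missed the threshold (edgeR adjusted p 0.0562, SE 0.073), although the groups did not overlap; the DESeq2 Wald test called it (adjusted p 0.0332), and over 24 alternatives the adjusted p ran from 0.0101 to 0.225. The combination was higher than curcumin by 0.29 (edgeR adjusted p 0.0131, SE 0.073), a call that was lost without curcumin replicate 3 (edgeR adjusted p 0.0613), curcumin replicate 4 (0.0549) or combination replicate 3 (0.0714). Within a library the FPKM of *cth-2* was 24 ± 1.38 times that of *cth-1* in the control, 39.3 ± 6.53 times under curcumin, 19.7 ± 1.52 times under sulforaphane and 34.5 ± 4.63 times under both (SD, n = 4). This ratio does not depend on how libraries are scaled. It was chosen after the values were seen and is given with no test.

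**Figure D4:**
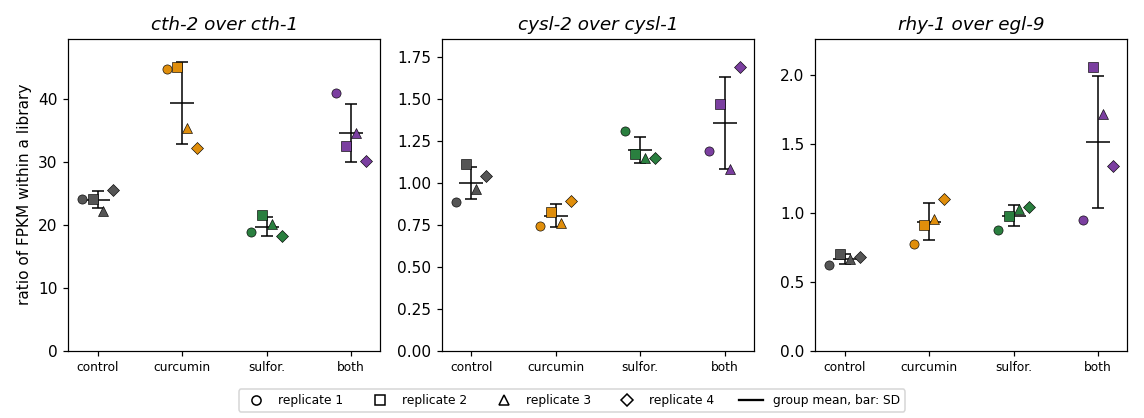
Ratio of FPKM within each library for *cth-2* over *cth-1*, *cysl-2* over *cysl-1* and *rhy-1* over *egl-9*; points are libraries, shaped by replicate number, with the group mean and SD in black, and axes start at 0. The *cth-2* to *cth-1* ratio is above the control range of 22.2 to 25.5 in every library that received curcumin, and the *rhy-1* to *egl-9* ratio is above the control range of 0.619 to 0.702 in every treated library. No ratio was tested.

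CYSL-1 and CYSL-2 are related to plant cysteine synthases. CYSL-1 has taken on the signalling role described above, and CYSL-2 has cyanoalanine synthase activity, which detoxifies cyanide; its gene is a known target of HIF-1. *cysl-1* was at 29.6 to 31.2 CPM in the control libraries, 32.3 to 35.2 under curcumin, 27.7 to 32.3 under sulforaphane and 29.0 to 36.5 under both. The curcumin libraries were above the control range, but the log2 change of 0.15 was not called (edgeR adjusted p 0.272, SE 0.078). It was -0.02 with sulforaphane (edgeR adjusted p 0.91, SE 0.079) and 0.11 with the combination (edgeR adjusted p 0.357, SE 0.079).

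*cysl-2* was at 25.1, 30.7, 25.8 and 29.4 CPM in the control libraries and at 23.7, 24.2, 23.5 and 27.4 CPM with curcumin. It was at 32.9, 34.5, 32.6 and 30.7 CPM with sulforaphane and at 33.9, 47.4, 35.8 and 44.4 CPM with the combination. Combination libraries were all above the control and curcumin ranges. The combination raised *cysl-2* 1.46-fold over the control, a log2 change of 0.54 (edgeR adjusted p 0.000149, SE 0.098), and 1.63-fold over curcumin, a log2 change of 0.71 (edgeR adjusted p 1.62e-05, SE 0.099). Its log2 change against the control was -0.17 with curcumin (edgeR adjusted p 0.34, SE 0.1) and 0.23 with sulforaphane (edgeR adjusted p 0.19, SE 0.099), and neither was called. Curcumin was lower than sulforaphane by -0.40 (edgeR adjusted p 0.0046, SE 0.099). The combination was higher than sulforaphane by 0.31 (edgeR adjusted p 0.0274, SE 0.097), but these ranges overlapped. The call was lost when any of control replicate 3, sulforaphane replicates 1, 3 and 4 or combination replicates 2 and 4 was left out. It was also lost with limma-trend on log2(FPKM + 1) (adjusted p 0.0559), and over 24 alternatives the adjusted p ran from 0.00699 to 0.184. The FPKM of *cysl-2* was 0.998 ± 0.097 times that of *cysl-1* in the control, 0.804 ± 0.0669 times under curcumin, 1.2 ± 0.0753 times under sulforaphane and 1.36 ± 0.274 times under both (SD, n = 4). This ratio was not planned and is given with no test.

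Mitochondrial sulfide oxidation begins with sulfide:quinone oxidoreductase, encoded by *sqrd-1*. *sqrd-1* was at 48.1, 55.4, 55.6 and 46.0 CPM in the control libraries and at 78.8, 97.4, 94.1 and 94.5 CPM with curcumin. It was at 24.1, 37.8, 35.0 and 33.3 CPM with sulforaphane and at 39.7, 55.2, 57.1 and 47.2 CPM with the combination. The curcumin, control and sulforaphane groups formed separate steps from high to low, and the combination overlapped the control. Curcumin raised *sqrd-1* 1.78-fold, a log2 change of 0.83 (edgeR adjusted p 6.25e-06, SE 0.11). Sulforaphane lowered it to 0.636 times the control, a log2 change of -0.65 (edgeR adjusted p 0.000626, SE 0.12). Curcumin was 2.8-fold above sulforaphane, a log2 difference of 1.48 (edgeR adjusted p 4.39e-10, SE 0.12). With both compounds the log2 change against the control was -0.04 (edgeR adjusted p 0.84, SE 0.12), with a 95% interval of -0.27 to 0.18. The combination was lower than curcumin by -0.87 (edgeR adjusted p 7.56e-06, SE 0.11) and higher than sulforaphane by 0.61 (edgeR adjusted p 0.00046, SE 0.12). The intestinal marker sum was lower than the control with curcumin and with the combination and higher with sulforaphane, and its part in the *sqrd-1* values was not tested.

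The persulfide that follows is oxidized by the dioxygenase ETHE-1. Unlike *sqrd-1*, *ethe-1* gave no call in any of the comparisons made. It was at 16.9 to 21.2 CPM in the control libraries, 15.0 to 21.1 under curcumin, 17.7 to 22.6 under sulforaphane and 15.4 to 23.3 under both, and all groups overlapped. The log2 change against the control was -0.10 with curcumin (edgeR adjusted p 0.711, SE 0.12, 95% interval -0.34 to 0.14). It was 0.05 with sulforaphane (edgeR adjusted p 0.879, SE 0.12, 95% interval -0.19 to 0.30) and -0.05 with the combination (edgeR adjusted p 0.835, SE 0.12, 95% interval -0.29 to 0.20). These intervals leave out changes as large as those of *sqrd-1* in the single treatments.

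In the HIF-1 axis, RHY-1 is a membrane protein that keeps HIF-1 activity low, and its own gene is a HIF-1 target. *rhy-1* was at 22.5, 27.2, 25.8 and 25.4 CPM in the control libraries and at 24.2, 33.8, 35.4 and 35.7 CPM with curcumin. It was at 27.2, 38.6, 34.9 and 35.3 CPM with sulforaphane and at 27.6, 67.7, 49.4 and 40.3 CPM with the combination. In each treated group, replicate 1 was the lowest library and the other libraries were above the whole control range. Replicate 1 itself was inside the control range with curcumin and just above it with sulforaphane and with the combination. The combination raised *rhy-1* 1.83-fold, a log2 change of 0.87 (edgeR adjusted p 0.000538, SE 0.18), and it stayed called under all 24 alternatives, with log2 changes from 0.63 to 1.05. The log2 change was 0.35 with curcumin (edgeR adjusted p 0.231, SE 0.18) and 0.43 with sulforaphane (edgeR adjusted p 0.177, SE 0.18), and neither was called. Without replicate 1 of every group, a choice made after these values were seen, the log2 change was 0.42 with curcumin (edgeR adjusted p 0.0368), 0.49 with sulforaphane (edgeR adjusted p 0.0278) and 0.99 with the combination (edgeR adjusted p 4.59e-06). Over the 24 alternatives the adjusted p ran from 0.00128 to 0.405 for curcumin and from 5.51e-05 to 0.387 for sulforaphane.

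EGL-9 hydroxylates HIF-1 when oxygen is present and so marks it for degradation. *egl-9* was at 59.7, 63.6, 63.7 and 61.5 CPM in the control libraries and at 47.7, 54, 47.1 and 49.2 CPM with the combination. It was at 51.2 to 60.6 CPM with curcumin and 51.2 to 65.0 CPM with sulforaphane. The combination libraries were all below the control range, and the single treatments overlapped it. The combination lowered *egl-9* to 0.796 times the control, a log2 change of -0.33 (edgeR adjusted p 0.00242, SE 0.077). The log2 change was -0.14 with curcumin (edgeR adjusted p 0.276, SE 0.077) and -0.13 with sulforaphane (edgeR adjusted p 0.411, SE 0.077). *rhy-1* and *egl-9* are both negative regulators of HIF-1 and moved in opposite directions with the combination, so their ratio had to rise there. The FPKM of *rhy-1* was 0.667 ± 0.0349 times that of *egl-9* in the control and 1.52 ± 0.478 times with the combination (SD, n = 4). It was 0.939 ± 0.135 times with curcumin and 0.981 ± 0.0781 times with sulforaphane (SD, n = 4). This ratio was not planned and is given with no test.

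*hif-1* encodes the transcription factor itself, whose activity is set mainly through protein stability. *hif-1* was at 372, 367, 352 and 354 CPM in the control libraries and at 424, 413, 402 and 392 CPM with the combination, and these ranges did not overlap. It was at 362 to 418 CPM with curcumin and 356 to 389 CPM with sulforaphane, both overlapping the control. The log2 change was 0.17 with the combination (edgeR adjusted p 0.0277, SE 0.057), 0.12 with curcumin (edgeR adjusted p 0.174, SE 0.057) and 0.05 with sulforaphane (edgeR adjusted p 0.692, SE 0.057). The combination call was lost under 10 of 24 alternatives, with an adjusted p of 0.00461 to 0.114 and a log2 change of 0.13 to 0.19; among them were scaling by library size alone (edgeR adjusted p 0.0738) and leaving out any of control replicates 2, 3 and 4 or combination replicates 1, 2 and 3.

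The interaction contrast asks whether the combination departs from the sum of the single log2 changes. It called 0.991% of all tested genes (0.377% above the sum and 0.614% below) and 0 of the 10 members (edgeR); 1 member had an unadjusted p under 0.05, DESeq2 and limma on FPKM called 0, and the number over all alternatives tried was 0 to 1. The member with the low unadjusted p was *cysl-2*, at 0.47 above the sum (edgeR adjusted p 0.134, SE 0.14, 95% interval 0.20 to 0.75). For *sqrd-1* the departure was -0.22 (edgeR adjusted p 0.783, SE 0.16, 95% interval -0.54 to 0.10), and for *cth-1* it was -0.08 (edgeR adjusted p 0.946, SE 0.14, 95% interval -0.35 to 0.19). For *rhy-1* it was 0.09 (edgeR adjusted p 0.974, SE 0.25, 95% interval -0.40 to 0.57), a wide interval.

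Pairs of treated groups also differed in some members. Against sulforaphane, curcumin was higher for 2 members (*cbs-1* and *sqrd-1*) and lower for 3 (*cth-1*, *cth-2* and *cysl-2*), where 18.1% of all tested genes were called, 7.62% higher and 10.5% lower. Their ranges lay apart for 6 members, beside 21.3% of tested genes. Against curcumin, the combination was higher for 3 members (*cth-1*, *cth-2* and *cysl-2*) and lower for *sqrd-1*, where 7.32% of all tested genes were called, 4.65% higher and 2.67% lower; ranges lay apart for 3 members, beside 10.9% of tested genes. Against sulforaphane, the combination was higher for 3 members (*cbs-1*, *cysl-2* and *sqrd-1*) and lower for *cth-1*, where 18.8% of all tested genes were called, 9.53% higher and 9.25% lower. Ranges lay apart for 4 members there, beside 20.8% of tested genes.

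Other genes that make or use cysteine and sulfide were taken from a list of 18 found in the table, of which 14 were tested. With curcumin 2 rose and 1 fell, with sulforaphane 3 rose, and with the combination 5 rose and 1 fell, beside 14.6%, 6.71% and 23.1% of all tested genes called in these comparisons; the median log2 change was -0.01, 0.07 and 0.13, beside -0.01, -0.02 and -0.02 over all tested genes. *cdo-1*, which encodes cysteine dioxygenase, the first step of cysteine breakdown, rose in all 3. It was at 69.4 to 72.9 CPM in the control libraries, 78.4 to 94.2 under curcumin, 81.8 to 87.7 under sulforaphane and 102 to 111 under both. Its log2 change was 0.27 with curcumin (edgeR adjusted p 0.00419, SE 0.063), 0.27 with sulforaphane (edgeR adjusted p 0.00868, SE 0.064) and 0.58 with the combination (edgeR adjusted p 1.15e-07, SE 0.063). The combination was also above each single treatment, by 0.31 over curcumin (edgeR adjusted p 0.00161, SE 0.063) and by 0.31 over sulforaphane (edgeR adjusted p 0.000742, SE 0.063).

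Further along this route, *suox-1*, the sulfite oxidase gene, rose by 0.24 with the combination (edgeR adjusted p 0.0281, SE 0.08). *moc-1*, needed for the molybdenum cofactor of sulfite oxidase, rose by 0.31 with sulforaphane (edgeR adjusted p 0.041, SE 0.092) and by 0.40 with the combination (edgeR adjusted p 0.00186, SE 0.092). *gcs-1*, which encodes the glutamate-cysteine ligase subunit that starts glutathione synthesis, rose by 0.31 with sulforaphane (edgeR adjusted p 0.00402, SE 0.068) and by 0.27 with the combination (edgeR adjusted p 0.00458, SE 0.068). Of the mercaptopyruvate sulfurtransferase genes, *mpst-7* stood at 4.99 ± 1.05 CPM in control worms and at 9.73 ± 0.977 CPM under both compounds (SD, n = 4), higher by 0.96 (edgeR adjusted p 1.29e-05, SE 0.14). With curcumin it rose by 0.45 (edgeR adjusted p 0.0418, SE 0.15). *mpst-3* fell: control worms had 65.6 ± 5.86 CPM, curcumin worms 55.2 ± 2.2 and combination worms 47 ± 6.65 (SD, n = 4), for log2 changes of -0.25 (edgeR adjusted p 0.0487, SE 0.085) and -0.48 (edgeR adjusted p 0.000112, SE 0.086). The genes *cysl-4*, *mpst-2*, *mpst-5* and *mpst-6* had at most 12 reads in any library and were not tested.

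The 7 genes for HIF-1 partners and its degradation machinery included the dimerization partner *aha-1* and the ubiquitin ligase subunits *vhl-1* and *cul-2*. Only *swan-1* was called against the control, higher under each treatment, so 1 of the 7 was called each time. Of all tested genes, 14.6% were called under curcumin, 6.71% under sulforaphane and 23.1% under both compounds. SWAN-1 is a WD-repeat protein reported to act with EGL-9. *swan-1* was at 13.2 ± 1.06 CPM in the control, 16.7 ± 2.57 under curcumin, 18 ± 1.02 under sulforaphane and 16.8 ± 1.79 under both (SD, n = 4). Its log2 change was 0.34 (edgeR adjusted p 0.0372, SE 0.11), 0.45 (edgeR adjusted p 0.0113, SE 0.11) and 0.35 (edgeR adjusted p 0.0243, SE 0.11) in turn.

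Of 9 genes reported as HIF-1 targets in the worm, *cdo-1* among them, 8 were tested, and they did not move as a block. With curcumin 3 rose and 3 fell, with sulforaphane 2 rose and 1 fell, and with the combination 4 rose and 3 fell, beside the same 14.6%, 6.71% and 23.1% of all tested genes. The median log2 change was -0.29, 0.03 and 0.10, beside -0.01, -0.02 and -0.02 over all tested genes. These counts and medians include *ftn-1*, which HIF-1 is reported to repress, so they do not give a direction of HIF-1 activity. *phy-2*, a collagen prolyl hydroxylase subunit gene, rose in all 3, from 39.4 ± 2.09 CPM in the control to 51.8 ± 1.39 under curcumin, 46.8 ± 1.53 under sulforaphane and 59.3 ± 4.39 under both (SD, n = 4). Its log2 change was 0.40 (edgeR adjusted p 0.000112, SE 0.067), 0.25 (edgeR adjusted p 0.0241, SE 0.068) and 0.59 (edgeR adjusted p 2.05e-07, SE 0.067). *nhr-57*, a nuclear receptor gene used as a reporter of HIF-1 activity, fell by 0.33 on the log2 scale with curcumin (edgeR adjusted p 0.0437, SE 0.11) and by 0.38 with the combination (edgeR adjusted p 0.0126, SE 0.11). With sulforaphane its log2 change was also -0.33, but this missed the threshold (edgeR adjusted p 0.0772, SE 0.11). The cytochrome P450 gene *cyp-36A1* fell from 65.1 ± 10.5 CPM to 39.7 ± 3.01 under curcumin and 46.1 ± 3.02 under both compounds (SD, n = 4). The log2 change of *cyp-36A1* was -0.71 (edgeR adjusted p 1.66e-05, SE 0.11) and -0.50 (edgeR adjusted p 0.000802, SE 0.1). The short-chain dehydrogenase gene *dhs-8* rose with the combination by 0.96 (edgeR adjusted p 0.0304, SE 0.32) from a low level of 1.16 ± 0.223 CPM (SD, n = 4). *fmo-2* had at most 11 reads in any library and was not tested.

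That list also holds iron genes. *ftn-1*, a ferritin gene that HIF-1 is reported to repress, was at 314 ± 26.1 CPM in the control, 720 ± 91.2 under curcumin, 213 ± 19.5 under sulforaphane and 751 ± 106 under both (SD, n = 4). Its log2 change was 1.2 with curcumin (edgeR adjusted p 9.34e-10, SE 0.096), -0.56 with sulforaphane (edgeR adjusted p 0.000315, SE 0.096) and 1.26 with the combination (edgeR adjusted p 2.15e-10, SE 0.096). Among the listed genes it alone was called for the interaction, at 0.62 above the sum (edgeR adjusted p 0.0174, SE 0.13). *smf-3*, an iron and manganese transporter gene that HIF-1 is reported to activate, fell by 0.65 on the log2 scale both with curcumin (edgeR adjusted p 0.000232, SE 0.12) and with the combination (edgeR adjusted p 0.000157, SE 0.12). The intestinal marker sum was also lower in these groups, and its part in the *smf-3* and *cyp-36A1* values was not tested.

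**Figure D5:**
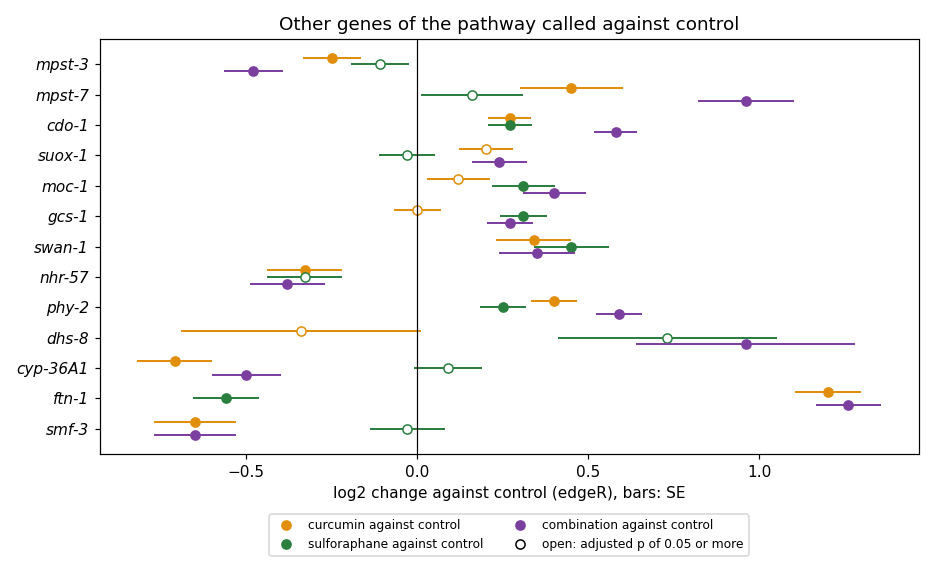
Log2 change against the control of the 13 genes from the pathway lists that were called in at least 1 of these comparisons (edgeR); bars are 1 SE, and filled points have an adjusted p under 0.05. *cdo-1*, *phy-2* and *swan-1* are filled and above 0 for all 3 treatments, while *nhr-57*, *cyp-36A1* and *smf-3* lie below 0 with curcumin and the combination. With sulforaphane *nhr-57* lies as far below 0 as with curcumin, as an open point.

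The genes whose log2 CPM followed *sqrd-1*, *cth-1* and *rhy-1* most closely over the 16 libraries were also found; these were the members with the largest called changes, and the libraries share group and depth. Because the like genes were picked by correlation in these same libraries, a group order or spread shared with the member follows from the choice. For *sqrd-1* they were *dhs-26* (r = 0.962), *dpl-1* (r = 0.942) and C30G12.2 (r = 0.926). *dhs-26* was at 191 ± 21.7 CPM in the control, 387 ± 21.5 under curcumin, 140 ± 30.2 under sulforaphane and 215 ± 30.6 under both (SD, n = 4), the same order of the single treatments as *sqrd-1*. For *cth-1* they were *ttm-5* (r = 0.967), K08D8.4 (r = 0.962) and *aagr-2* (r = 0.962). K08D8.4 was at 98.9 ± 10.7 CPM in the control, 43.8 ± 8.63 under curcumin, 166 ± 3.07 under sulforaphane and 60.4 ± 2.82 under both (SD, n = 4). For *rhy-1* they were F45E10.2 (r = 0.951), F55A11.6 (r = 0.87) and *slc-9B.1* (r = 0.861). F45E10.2 was at 20.3 ± 2.42 CPM in the control, 24.3 ± 3.61 under curcumin, 24 ± 2.95 under sulforaphane and 35.2 ± 9.09 under both (SD, n = 4), with a wide combination group like that of *rhy-1*.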

How the data were processed

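PolyA RNA of 16 whole-worm samples was sequenced, and the authors deposited raw read counts per gene and FPKM values, 1 column per library. The submitters' processing notes name HISAT2 2.0.5, StringTie 1.3.3b, featureCounts 1.5.0-p3, DESeq2 1.20.0 and build WBcel235, without stating roles, filters or strand. From the deposited counts, edgeR 4.0.16 (R 4.3.3) kept genes by filterByExpr (minimum count 10, minimum total 15), scaled by TMM and fitted all 16 libraries with the quasi-likelihood method, 1 coefficient per group. Tests were two-sided with Benjamini-Hochberg adjustment over 14328 genes. The SE is the size of the log2 change divided by the square root of F, and 95% intervals are 1.96 SE on each side. Log2 CPM used a prior count of 2. The fit was tested on simulated data. Deposited FPKM values were used for levels, ratios and a limma 3.58.1 alternative with a pseudocount of 1; the other alternatives are in the closing section.

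The titles give each sample's group and replicate number; the series' design text calls the replicates independent. Every listed gene is reported against the control, and in other comparisons those called; from the pathway lists, genes called against the control are named. Genes most alike have the highest Pearson r over all libraries. The members and lists were chosen with earlier results of these data known. Per-library depth limits precision through the replicate spread.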

Additional observations from a re-analysis of the deposited data

Results flagged for a closer look

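Each gene's 4 libraries per group were screened for a library far from the others, by Dixon's test at the 95% level; chance flags about 1 in 20 of the 40 groups examined. There were 4 such libraries. *rhy-1* was at 24.2 CPM in curcumin replicate 1, against 33.8, 35.4 and 35.7 CPM in the other libraries of that group. *cth-1* was at 48.3 CPM in sulforaphane replicate 1, against 52.0 to 52.7 CPM in the others. *cth-1* was also low in combination replicate 1, at 22.3 CPM against 29.7 to 30.5 CPM. *cbs-1* was at 66.7 CPM in sulforaphane replicate 3, against 61.0 CPM in each of the others.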

How the results depend on the processing

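Results were recomputed with scaling by DESeq2 size factors or by library size alone, at least 1 read in any library as the filter, the DESeq2 Wald test, the replicate block, limma-trend on log2(FPKM + 1), a fit to only the groups compared, leaving out each library, and, chosen after seeing the data, leaving out replicate 1 of every group. Single genes were followed through these alternatives for the members only. Calls of pathway-list genes, some of them just under 0.05, were not checked this way. The numbers of members called moved by over 1.5 times once: the interaction gave 1 with the replicate block. Leaving out each library gave 3 for curcumin, 2 to 3 for sulforaphane and 4 to 7 for the combination against the control. Over all genes, sulforaphane against control gave 1469 calls in place of 961 with the block, and the interaction 318 with the block, 352 with the 1-read filter and 224 with DESeq2, in place of 142.

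Same-numbered libraries of different groups had correlated deviations from their group means (mean r 0.109, over 0.1 in 12 of 24 pairs), and 14 of 16 libraries were closest to their own number. That is a hint from the data and not from the design, so the block is an alternative only. It called *cysl-2* for the interaction (adjusted p 0.0287), *rhy-1* for curcumin (0.0292) and sulforaphane (0.0136), and *cth-2* for the combination (0.0101) against the control. Between treated groups it called *rhy-1* for the combination against curcumin (0.00287) and against sulforaphane (0.00614) and *egl-9* for the combination against sulforaphane (0.0204). The main fit without the block called none of these, with edgeR adjusted p of 0.0739, 0.0843 and 0.0763 in turn. The DESeq2 Wald test and limma-trend did not call them either. The block lost no call among the members.

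Signs turned only for uncalled changes near 0. *cbs-1* with sulforaphane was -0.02 with library size alone and -0.02 to 0.05 when libraries were left out. *cysl-1* with sulforaphane was 0.00 with the 1-read filter and 0.04 without replicate 1 of every group, and -0.06 to 0.01 when libraries were left out. *sqrd-1* with the combination was 0.01 without replicate 1 of every group and -0.13 to 0.04 when libraries were left out. *ethe-1* ran from -0.01 to 0.12 with sulforaphane and from -0.18 to 0.03 with the combination.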

Other observations

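The libraries numbered 1 stood at an end of their group in several of these genes. *rhy-1* was lowest in replicate 1 in 4 of 4 groups, and *ethe-1* was highest there in 4 of 4. *cth-1*, *sqrd-1* and *egl-9* were each lowest in replicate 1 in 3 of 4 groups, and *hif-1* was highest there in 3 of 4. *cysl-1* and *cbs-1* had no such pattern for replicate 1, and *cbs-1* and *hif-1* were lowest in replicate 4 in 3 of 4 groups. How often this happens over all tested genes was not counted. What the replicate number stands for is not given in the labels.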
